A study of Mus musculus with 8 samples.

Results

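The 10 genes described here encode secreted antagonists of Wnt signalling and were taken by symbol from the count table: Sfrp1, Sfrp2, Sfrp4, Dkk1, Dkk2, Dkk3, Wif1, Sost, Notum and Draxin. Of these 10 genes, 8 had a row among the 28901 genes of the table, and 6 had counts high enough to be tested among 17038 genes. Dkk1 and Sost had no row under their symbols or RefSeq synonyms and were not analysed here. The table held 0 genes without counts in every library, so a missing row may stand for such a gene, which was not tested. The cells were MC3T3-E1, an established line of pre-osteoblasts from mouse calvaria, and each of the 4 groups held 2 RNA sequencing libraries. Their titles are Brd and control for one pair, and NM-Brdi and NM-DMSO for the other. According to the series text, BRD9, a bromodomain subunit of a chromatin remodelling complex, was inhibited with 10 µM I-BRD9, with DMSO as the vehicle. For osteogenic differentiation it lists glycerol phosphate, ascorbic acid and 0.1 µM dexamethasone as additions to the medium. The labels do not tell which of these the Brd and control cultures received, nor what NM means, and the titles are therefore used as group names. No genotype differs by label, and the 2 libraries of a group are not stated to come from separate cultures, so p-values measure the spread between libraries, which may be technical.

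Wnt proteins act on cells through Frizzled receptors and the co-receptors Lrp5 and Lrp6, and one branch of the pathway stabilises β-catenin, which turns on target genes together with TCF/LEF factors. Secreted antagonists work outside the cell. Sfrp proteins and Wif1 bind Wnt ligands, Dkk1, Dkk2 and Sost bind Lrp5 and Lrp6, and Notum is an enzyme that removes the lipid Wnt proteins need for binding their receptors. Dkk3 is the divergent member of the Dickkopf family, whose action on Wnt signalling differs between settings, and Draxin is an axon guidance protein also known to antagonise Wnt signalling. In bone, canonical Wnt signalling favours osteoblast formation, and several antagonists are made by osteoblasts and osteocytes.

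Library totals ran from 16918182 to 24555028 counts. Levels are given as CPM, the counts relative to the library total after scaling by TMM factors, where 1 CPM stood for 16.4 to 26.1 counts. The NM-DMSO libraries stood furthest from each other. The mean chi-square between the libraries of a group, which is near 1 for sampling noise alone, was 2.57 for Brd, against 2.02 for control, and 6.06 for NM-Brdi, against 71.7 for NM-DMSO. All 6 osteoblast markers were detected in every group, with Col1a1 at 2340 to 3910 CPM and Runx2 at 204 to 468 CPM. Others were low, with Bglap at 8.73 CPM at most and Alpl at 2.83 and 4.17 CPM in NM-Brdi. Summed osteoblast markers stood at 4470 to 4680 CPM in Brd, against 6410 to 6790 CPM in control, and at 2670 to 2910 CPM in NM-Brdi, against 4050 to 4430 CPM in NM-DMSO. Within the first pair, Ibsp had 429 and 547 CPM in Brd, against 1910 and 1940 CPM in control. Col1a1 had 3560 and 3610 CPM in Brd, against 3550 and 3910 CPM in control. Bglap had 3.29 and 2.74 CPM in control, against 8.73 and 6.01 CPM in NM-DMSO, the reverse of the sums. Markers of adipocytes (2 of 4 with a row), endothelial cells (3 of 4) and epithelial cells (4 of 4) summed to less than 0.6 CPM in each library. Summed osteocyte markers, mostly Pdpn, stood at 43.7 to 43.9 CPM in Brd, against 38.6 to 40.6 CPM in control, and at 66.4 to 72.7 CPM in NM-Brdi, against 69.8 to 80.7 CPM in NM-DMSO, and the osteocyte gene Dmp1 reached 4.19 CPM at most. Of 4 chondrocyte markers Col2a1 and Sox9 were detected at 57.5 to 188 CPM while Acan and Col9a1 were at or near 0. Of 6 macrophage and osteoclast markers Ptprc, Adgre1 and Csf1r did not exceed 1.16 CPM, and Ctsk stood at 39.1 to 81.1 CPM. Skeletal muscle markers (2 of 4 with a row) summed to 8.63 to 16.7 CPM. Summed smooth muscle and contractile markers, mostly Acta2, stood at 1360 to 1400 CPM in Brd, against 882 to 922 CPM in control, and at 802 to 839 CPM in NM-Brdi, against 832 to 1210 CPM in NM-DMSO. The part of these differences in the results on the antagonists was not tested. In bulk RNA, fewer cells that express a gene and less RNA per cell cannot be told apart.

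Dkk3, Sfrp2, Wif1 and Draxin made up nearly the whole message of the 8 listed antagonists with a row. Per length of the exons, Dkk3 had the highest level in each library. It averaged 343.8 ± 16.4 CPM per kb in Brd, against 142 ± 3.78 CPM per kb in control, and 217.7 ± 31.0 CPM per kb in NM-Brdi, against 109.4 ± 9.39 CPM per kb in NM-DMSO (mean ± SD, n = 2 here and below). Its rank was 230 in Brd, against 575 in control, and 382 in NM-Brdi, against 799 in NM-DMSO, among 16623 tested genes with an annotated length. Sfrp2 came next, at 55.2 ± 1.13 CPM per kb in Brd, against 119 ± 5.37 CPM per kb in control, and at 124.7 ± 5.48 CPM per kb in NM-Brdi, against 79.4 ± 4.38 CPM per kb in NM-DMSO. Wif1 was the third gene in each library, and its group means spanned 3.02 CPM per kb in NM-Brdi to 42.5 CPM per kb in control. Draxin averaged 3.65 CPM per kb in Brd, against 7.26 CPM per kb in control, and 1.77 CPM per kb in NM-Brdi, against 0.475 CPM per kb in NM-DMSO.

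The make-up of this set differed between the groups. Of the summed CPM per kb of the 8 genes with a row, Dkk3 held 81.3% and 79.5% in the Brd libraries, against 44.7% and 46.5% in the control libraries. It held 64.3% and 60.7% in NM-Brdi, against 51.9% and 54.8% in NM-DMSO. The share of Sfrp2 was 12.5% and 13.4% in Brd, against 39.4% and 37.0% in control, while it was 34.5% and 37.5% in NM-Brdi, against 38.5% and 38.9% in NM-DMSO. The Wif1 share was 5.36% and 6.22% in Brd, against 13.3% and 14.0% in control, and 0.618% and 1.16% in NM-Brdi, against 8.73% and 5.85% in NM-DMSO. The summed level itself was 437 and 418.1 CPM per kb in Brd libraries, against 311.5 and 310.9 in control libraries. The NM-Brdi libraries summed to 372.8 and 322.5 CPM per kb, against 198 and 211.9 in NM-DMSO libraries. Shares and sums are descriptions of these libraries and carry no test.

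**Figure D1:**
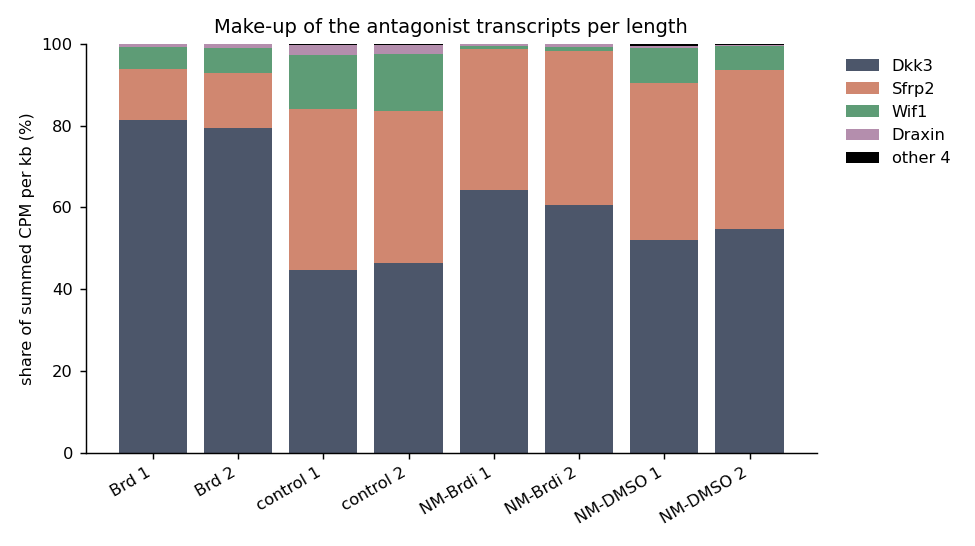
Share of each antagonist in the summed CPM per kb of the 8 genes with a row (vertical axis, percent), for each of the 8 libraries. Dkk3 holds 81.3% and 79.5% in Brd against 44.7% and 46.5% in control, and the Wif1 band is thinnest in NM-Brdi, at 0.618% and 1.16%.

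Dkk3 rose and Sfrp2 and Draxin fell in Brd relative to control, while in NM-Brdi relative to NM-DMSO Dkk3, Sfrp2 and Draxin rose and Wif1 fell. A gene was called when its adjusted p from edgeR's quasi-likelihood test, over all 17038 genes, was under 0.05. In Brd against control, 1 of the 6 tested antagonists was called higher and 3, counting Dkk2, lower, where 3.13% of all tested genes were called higher and 3.45% lower. In NM-Brdi against NM-DMSO, 3 were called higher and 1 lower, against 0.816% and 1.05% of all genes. Dkk3 was thus the member called higher in both pairs, and no member was called lower in both. The median log2 fold change of the 6 was -1 in the first pair and 0.19 in the second, where the medians of all genes were 0.00136 and -0.00392. Dkk2 passed the filter on low counts through control and NM-DMSO, the groups where it was higher, so that its call, these counts and these medians are descriptions of the 6 tested genes alone.

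**Figure D2:**
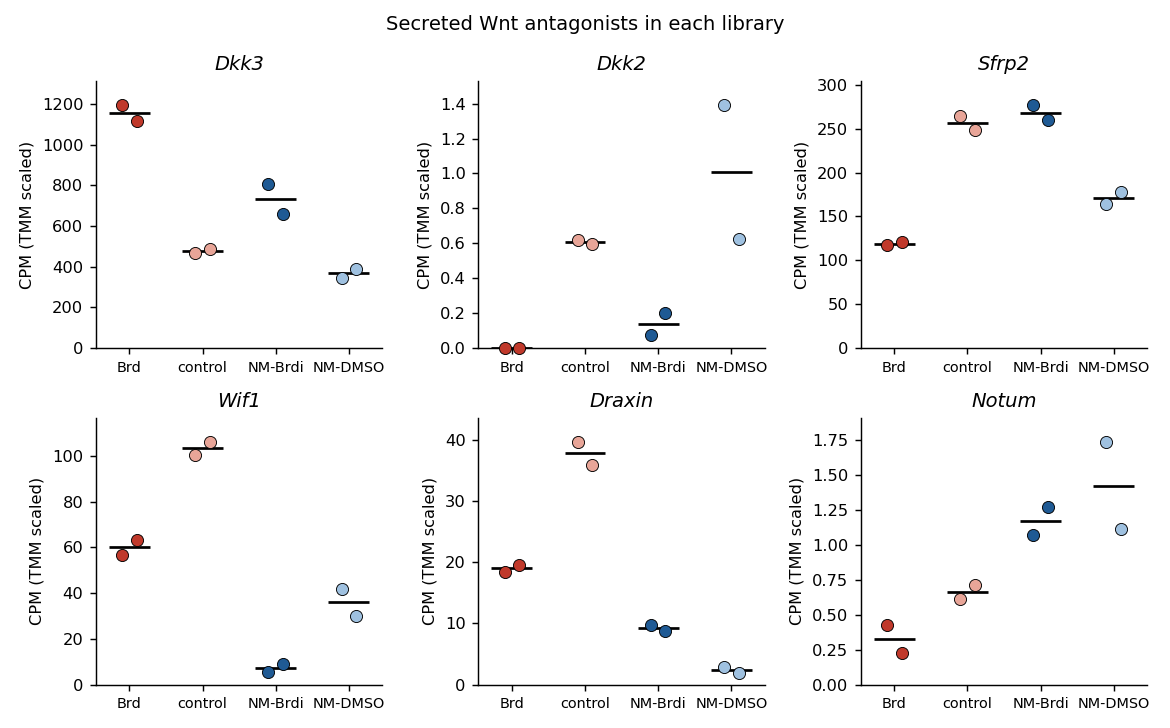
CPM of the 6 tested antagonists (vertical axes, linear from 0, one scale per gene) in the 2 libraries of each group (points) with the group mean (line). Dkk3 is higher in Brd and NM-Brdi than in their comparators, Wif1 is lower in both, and Sfrp2 and Draxin are lower in Brd but higher in NM-Brdi.

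Among the Dickkopf genes, Dkk3 (chromosome 7, 112116017 to 112159057, minus strand, GRCm38) had 1194 and 1116 CPM in Brd libraries, against 468 and 485.9 CPM in control libraries. It had 804.8 and 657.4 CPM in NM-Brdi libraries, against 345.2 and 389.8 CPM in NM-DMSO libraries. Brd lay above control and NM-Brdi above NM-DMSO, with no overlap in either pair. Here and below, such a separation of 2 libraries from 2 is a description and carries no test. The increase was 2.42-fold in Brd (log2 fold change 1.28, SE 0.13, adjusted p = 0.00283) and 1.99-fold in NM-Brdi (0.99, SE 0.13, adjusted p = 0.0154). The increase in Brd was also called by edgeR with the 4 libraries of that pair alone (adjusted p = 1.12e-27). DESeq2, sample quality weights in voom and a fit without a filter called it too. The difference between these increases was 0.28 on the log2 scale (SE 0.18, adjusted p = 0.634) and was not called. It ran from 0.14 to 0.44 over the fits without 1 library. Its call without NM-DMSO replicate 1 (0.35) lends no support, as that group then has no spread of its own. Without Brd replicate 1, control replicate 1 or control replicate 2 the first call was lost (adjusted p = 0.061, 0.0603 and 0.0541), and the second was lost without NM-Brdi replicate 1 or any library of Brd or control (adjusted p at most 0.18); with the 4 NM libraries alone its adjusted p was 0.318.

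Dkk2, which in other tissues can inhibit or weakly activate Wnt signalling through Lrp6 (chromosome 3, 132085292 to 132180304, plus strand), was near the limit of detection. Its counts were 0 and 0 in Brd libraries, against 12 and 10 in control libraries, and 2 and 5 in NM-Brdi libraries, against 28 and 14 in NM-DMSO libraries. Brd lay below control and NM-Brdi below NM-DMSO, with no overlap in either pair. A count of 0 was taken to allow up to 3 counts over the 2 Brd libraries, and the 22 control counts were taken as exact. On that basis Dkk2 was at least 6.84-fold lower in Brd than in control. Its adjusted p was 0.0473 with the filter, which it passed through the groups where it was higher, and 0.000825 without one. In the NM pair it stood 7.04-fold lower in NM-Brdi, which was not called (log2 fold change -2.81, SE 0.68, adjusted p = 0.104). The first p was above the threshold in each fit without a library of Brd, control or NM-Brdi (adjusted p of 0.0876 to 0.226) and with the replicate number as a block (adjusted p = 0.0751). The second log2 fold change ran from -3.60 to -2.13 over the fits without 1 library. It was called without a filter on low counts (adjusted p = 0.00728). It was also called without NM-DMSO replicate 2, where that group has no spread of its own.

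Among the proteins that bind Wnt ligands, Sfrp2 (chromosome 3, 83766321 to 83774316, plus strand) moved in opposite directions in the pairs. It had 117.2 and 120.6 CPM in Brd libraries, against 264.3 and 248 CPM in control libraries. It had 276.7 and 260 CPM in NM-Brdi libraries, against 164.2 and 177.5 CPM in NM-DMSO libraries. The order of the groups was Brd lowest, then NM-DMSO, then control and NM-Brdi, whose libraries overlapped. Sfrp2 was 2.15-fold lower in Brd than in control (log2 fold change -1.11, SE 0.10, adjusted p = 0.00213) and 1.57-fold higher in NM-Brdi than in NM-DMSO (0.65, SE 0.10, adjusted p = 0.0245). The decrease in Brd was also called by edgeR with the 4 libraries of that pair alone (adjusted p = 3.11e-23). DESeq2, voom weights and a fit without a filter called it too. Without Brd replicate 1 the first adjusted p was 0.061. The second call was lost without any 1 library of Brd, control or NM-Brdi (adjusted p of 0.0947 to 0.308), with sample quality weights in voom (adjusted p = 0.0567) and with the 4 NM libraries alone (adjusted p = 0.413). Exons of Sfrp2 overlapped 347 nt of Gm26771 on the opposite strand, which had 519 counts over the 8 libraries against 34394 for Sfrp2, and the strand setting of the counting is not given.

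Wif1 (chromosome 10, 121033960 to 121100650, plus strand) was the gene with the largest called decrease of the set in NM-Brdi. It had 5.59 and 9.05 CPM in NM-Brdi libraries, against 41.9 and 30.1 CPM in NM-DMSO libraries, and 56.8 and 63.1 CPM in Brd libraries, against 100.4 and 106 CPM in control libraries. Both pairs were free of overlap, and the NM groups lay below the groups without that prefix. Wif1 fell by 2.30 on the log2 scale in NM-Brdi, 4.92-fold (SE 0.24, adjusted p = 0.00828). In Brd it was 1.72-fold lower than in control (log2 fold change -0.78, SE 0.22), which did not pass the threshold (adjusted p = 0.0875). Without NM-DMSO replicate 1 or 2, which belong to the other pair but share its estimate of the spread, Wif1 was called in Brd (adjusted p = 5.23e-07 and 5.41e-07), as it was by DESeq2 (adjusted p = 0.0159), without a filter, with voom weights and with the 4 libraries of the pair alone. The NM call was lost without NM-Brdi replicate 1 (adjusted p = 0.0907) and with the 4 NM libraries alone (adjusted p = 0.256).

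Sfrp1 and Sfrp4, relatives of Sfrp2, were at or near the limit of detection of these libraries and were not tested. Sfrp1 had 0 and 0 counts in Brd libraries, against 0 and 3 in control libraries, and 4 and 0 in NM-Brdi libraries, against 1 and 4 in NM-DMSO libraries. Sfrp4 had 2 counts in NM-Brdi replicate 1 and 0 in the other 7 libraries. A count of 0 allows up to 3 counts, which is 0.115 to 0.183 CPM in these libraries, and these limits cover counting error only.

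Draxin (chromosome 4, 148098437 to 148130698, minus strand) was the second member with opposite changes. It had 18.4 and 19.5 CPM in Brd libraries, against 39.6 and 35.9 CPM in control libraries. It had 9.69 and 8.70 CPM in NM-Brdi libraries, against 2.98 and 1.96 CPM in NM-DMSO libraries. The 4 groups did not overlap and stood in the order control, Brd, NM-Brdi and NM-DMSO from high to low. Draxin was 1.99-fold lower in Brd than in control (log2 fold change -0.99, SE 0.17, adjusted p = 0.0173) and 3.74-fold higher in NM-Brdi than in NM-DMSO (1.90, SE 0.20, adjusted p = 0.00828). The decrease in Brd was also called by edgeR with the 4 libraries of that pair alone (adjusted p = 1.98e-12). DESeq2, voom weights and a fit without a filter called it too. The first call was lost without any 1 library of Brd, control or NM-Brdi (adjusted p of 0.0506 to 0.187). The second was lost without NM-Brdi replicate 1 (adjusted p = 0.121), with voom weights (adjusted p = 0.171) and with the 4 NM libraries alone (adjusted p = 0.262).

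Notum, the Wnt deacylase and itself a known target of β-catenin (chromosome 11, 120653788 to 120661175, minus strand), was low throughout. It had 7 and 4 counts in Brd libraries, against 12 and 12 in control libraries, and 28 and 32 in NM-Brdi libraries, against 35 and 25 in NM-DMSO libraries. The NM groups overlapped, and Brd lay below control. Neither change was called (log2 fold change -1.01, SE 0.52, adjusted p = 0.34 in Brd and -0.28, SE 0.38, adjusted p = 0.676 in NM-Brdi). Notum shared 708 nt of exon with Notumos on the opposite strand, which had 14 counts in all against 155 for Notum.

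The interaction asked which changes differed between the pairs, as the log2 fold change of Brd over control minus that of NM-Brdi over NM-DMSO. Sfrp2 (-1.76, SE 0.14, adjusted p = 0.00793) and Draxin (-2.89, SE 0.27, adjusted p = 0.0213) were called, with a lower value in the pair without the prefix NM. They were 2 of the 7 genes called among all 17038 tested, which is 0.0411% (0.0117% higher and 0.0293% lower). Wif1 had the next smallest p of the set, with an interaction of 1.51 (SE 0.33, adjusted p = 0.144), its fitted log2 fold change being further below 0 in the NM pair. It was not called in this test, but was by DESeq2's Wald test (adjusted p = 0.00225), with voom weights (adjusted p = 0.0193) and without a filter. It was also called without either NM-DMSO library, where that group has no spread of its own and a call lends no support. Notum (-0.73, SE 0.64, adjusted p = 0.718) was not called. For Dkk2, with 0 counts in Brd, no size of the interaction is given (adjusted p = 0.6). Both calls were lost without any 1 library of Brd, control or NM-Brdi (adjusted p of 0.0853 to 0.238 for Sfrp2 and 0.168 to 0.272 for Draxin), while the interaction of Sfrp2 ranged from -1.82 to -1.71 and that of Draxin from -3.24 to -2.62 over the 8 fits.

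**Figure D3:**
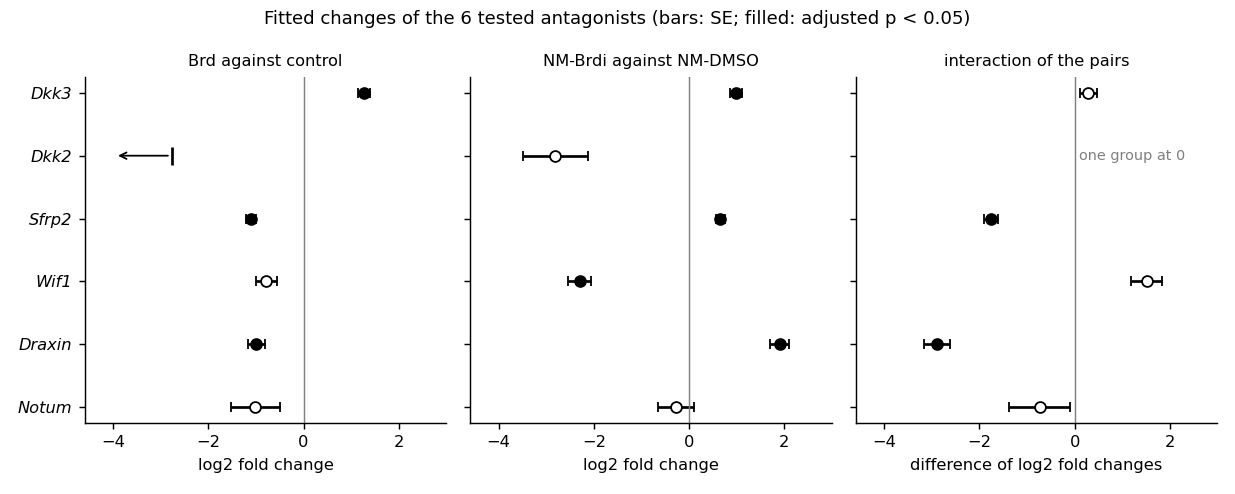
Fitted log2 fold change (horizontal axis) of the 6 tested antagonists in Brd against control (left), NM-Brdi against NM-DMSO (middle) and the difference of these changes (right). Bars are 1 SE, and filled points have an adjusted p under 0.05. The arrow marks Dkk2, at 0 in Brd, as at least 6.84-fold lower, with the control count taken as exact. Sfrp2 and Draxin lie left of 0 in the first panel and right of it in the second.

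**Figure D4:**
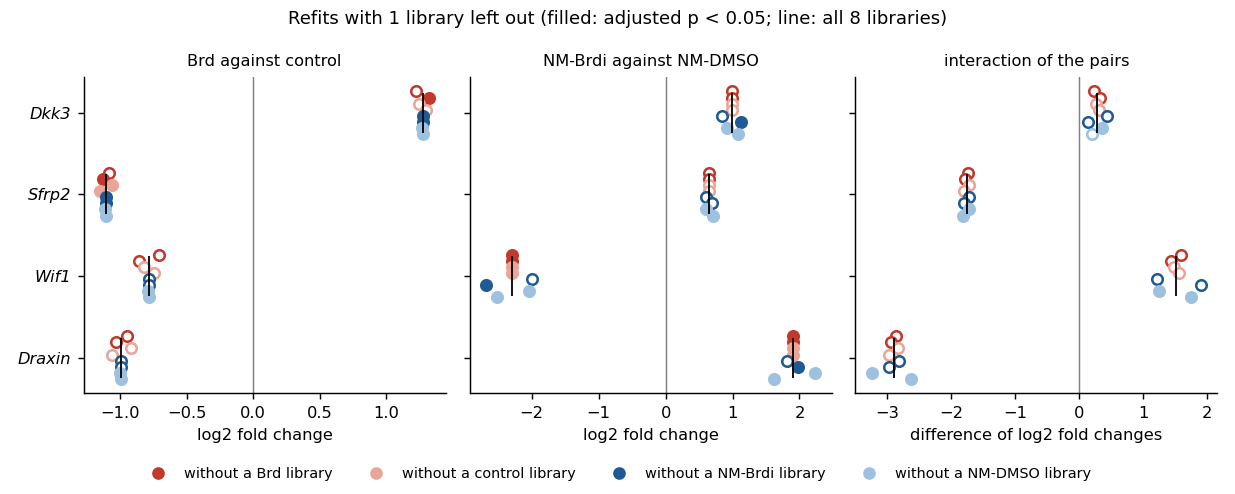
Log2 fold changes (horizontal axis) of Dkk3, Sfrp2, Wif1 and Draxin in the 8 fits that leave out 1 library each, coloured by the group of that library, and in the fit of all 8 (line). Filled points have an adjusted p under 0.05. The direction was the same in all 8 fits for these 4 genes, whereas the interaction calls of Sfrp2 and Draxin were kept without an NM-DMSO library and lost in the other 6 fits. In comparisons that involve NM-DMSO, calls kept without 1 of its libraries lend no support, as that group then has no spread of its own. Brd against control does not involve NM-DMSO, and Brd and control keep all their libraries in those fits.

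The sequences before the start sites of Sfrp2, Draxin and Wif1 are given because these genes had the smallest interaction p-values of the set. Each is the 250 bases before to 50 after the RefSeq start (GRCm38.p6), 5′ to 3′ on the strand of the gene. Sfrp2 lies at chr3:83766071-83766370 on the plus strand, Draxin at chr4:148130649-148130948 on the minus strand and Wif1 at chr10:121033754-121034053 on the plus strand. Capitals mark the matches described in the next paragraph. Of the 10 genes, 6 had an entry in this RefSeq table.
Sfrp2: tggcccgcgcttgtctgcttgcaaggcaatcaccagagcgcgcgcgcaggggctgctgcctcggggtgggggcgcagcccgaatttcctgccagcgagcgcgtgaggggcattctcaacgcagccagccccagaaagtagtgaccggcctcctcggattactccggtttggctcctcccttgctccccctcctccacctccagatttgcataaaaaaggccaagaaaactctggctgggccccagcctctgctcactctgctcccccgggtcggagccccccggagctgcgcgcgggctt
Draxin: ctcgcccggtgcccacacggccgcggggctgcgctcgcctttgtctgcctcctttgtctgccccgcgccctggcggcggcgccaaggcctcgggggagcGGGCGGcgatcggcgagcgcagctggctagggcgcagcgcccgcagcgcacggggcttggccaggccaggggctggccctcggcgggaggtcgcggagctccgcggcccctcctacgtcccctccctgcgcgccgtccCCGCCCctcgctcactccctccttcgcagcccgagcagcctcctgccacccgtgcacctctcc
Wif1: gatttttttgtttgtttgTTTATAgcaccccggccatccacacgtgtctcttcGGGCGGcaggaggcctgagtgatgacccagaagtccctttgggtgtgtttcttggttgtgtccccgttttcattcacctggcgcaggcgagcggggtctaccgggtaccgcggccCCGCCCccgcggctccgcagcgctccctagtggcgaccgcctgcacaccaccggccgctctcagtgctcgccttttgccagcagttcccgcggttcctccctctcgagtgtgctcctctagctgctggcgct

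A set of 6 short motifs was searched on both strands of these stretches. They were TCF/LEF (CTTTGAA or CTTTGTT or CTTTGAT or CTTTGTA), RUNX (TGTGGT), the GC box bound by Sp factors (GGGCGG), the TATA box (TATAAA), TEAD (GGAATG) and AP-1 (TGACTCA or TGAGTCA). Draxin held 2 GC boxes, with first bases at -151 and -13 from the start, and Wif1 held 2, with first bases at -197 and -82, where 35.7% of 32851 promoters held at least 1. Wif1 also held TATAAA on the opposite strand, with its first printed base at -232, which 13.6% of promoters held on either strand. Sfrp2 held none of the 6 motifs in this window. TCF/LEF letters were in none of these 3 windows and in 16.9% of all promoters, RUNX letters in 16.8%, TEAD letters in 14.7% and AP-1 letters in 5.2%. The GC content was 66% for Sfrp2, 78% for Draxin and 63% for Wif1, and the median of all promoters was 52.7%. These matches describe the letters alone and say nothing of binding.

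Between control and NM-DMSO, the comparators of the pairs, Draxin, Wif1 and Sfrp2 were higher in control than in NM-DMSO. Draxin was 15.3-fold higher (log2 fold change 3.94, SE 0.20, adjusted p = 7.74e-05), with 39.6 and 35.9 CPM in control against 2.98 and 1.96 CPM in NM-DMSO, and was called in all 8 fits without 1 library. Wif1 was 2.87-fold higher (1.52, SE 0.23, adjusted p = 0.00532) and Sfrp2 1.5-fold higher (0.58, SE 0.10, adjusted p = 0.00808). The Wif1 call was lost without control replicate 2 (adjusted p = 0.0534), and the Sfrp2 call without control replicate 1 or 2 (adjusted p = 0.103 and 0.0664) and with the pair alone (adjusted p = 0.119). Dkk3 was 1.30-fold higher without passing the threshold (0.38, SE 0.13, adjusted p = 0.0635), and it did pass by DESeq2 (adjusted p = 0.0439), without a filter (adjusted p = 0.0175) and without either NM-DMSO library. Dkk2 (-0.71, SE 0.58, adjusted p = 0.37) and Notum (-1.09, SE 0.42, adjusted p = 0.0888) were not called. Over the fits without 1 library Dkk2 ran from -1.19 to -0.039 on the log2 scale without a call, and Notum was called without NM-DMSO replicate 2 (-1.38). Without 1 of its libraries NM-DMSO has no spread of its own, so the calls gained there lend no support. Thus 3 of 6 tested members were called higher and 0 lower by edgeR, where 12% of all genes were called higher and 11.5% lower. At an unadjusted p under 0.05 stood 5 of the 6 members and 7312 of the 17038 genes. This comparison shares its control libraries with the first pair and its NM-DMSO libraries with the second.

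Genes whose levels over the 8 libraries were most like those of Dkk3 and Sfrp2, the members with the highest mean CPM, were sought by the root mean square (RMS) difference of log2 CPM after centring each gene on its mean. For Dkk3 the nearest of 9002 genes were Nectin1, a cell adhesion protein (RMS difference 0.0896 log2 units), Fgf7, a fibroblast growth factor (0.125), and Epha4, an ephrin receptor (0.132). The median over the candidates was 0.663. Fgf7, for one, had 250 and 225 CPM in Brd, against 124 and 115 CPM in control, and 180 and 160 CPM in NM-Brdi, against 73.6 and 81.8 CPM in NM-DMSO. For Sfrp2 the nearest were Hunk, a protein kinase (0.159), Cdc20, a mitotic activator of the anaphase-promoting complex (0.174), and Gas1, a membrane protein that binds hedgehog ligands (0.183), where the median over the candidates was 0.546. Gas1 had 175 and 176 CPM in Brd, against 380 and 351 CPM in control, and 317 and 324 CPM in NM-Brdi, against 285 and 293 CPM in NM-DMSO. The libraries are the same for each pair of genes, so these values only describe likeness.

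Among relatives of the antagonists outside the set, Tmem88 and Igfbp4 were called higher in Brd. Of 10 such genes, 8 had a row and 5 were tested, among them Frzb, a relative of the Sfrp proteins, which stood below 1 CPM in each library. Tmem88, a membrane protein that inhibits Dishevelled, was higher in Brd, at 9.80 ± 1.33 CPM, than in control, at 4.49 ± 0.20 CPM (log2 fold change 1.123, SE 0.22, adjusted p = 0.0256). Igfbp4, an IGF-binding protein also known to inhibit Wnt signalling at its receptors, was 1.90-fold higher in Brd (adjusted p = 0.0401). These were 2 of 5 called higher and 0 called lower, where 3.13% of all genes were called higher and 3.45% lower. In NM-Brdi against NM-DMSO edgeR called 0 of the 5 and 2 had an unadjusted p under 0.05, as did 3684 of all 17038 genes. There Tmem88 had a similar value, 9.19 ± 0.92 CPM in NM-Brdi, against 4.57 ± 1.11 CPM in NM-DMSO (log2 fold change 1.01, adjusted p = 0.0667), and Igfbp4 had a log2 fold change of -0.50 (adjusted p = 0.217). Apcdd1 (log2 fold change -0.84) and Tpbg (0.65), membrane inhibitors of Wnt signalling, were called in control against NM-DMSO (adjusted p = 0.0323 and 0.0444), 1 lower and 1 higher of 5, where 12% of all genes were called higher and 11.5% lower.

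Among the receptors the antagonists act on, Fzd9 was called lower in both pairs. Of 19 receptors and partners, 15 were tested, and their median log2 fold change was 0.07 for Brd and 0.23 for NM-Brdi. In Brd against control 0 of the 15 were higher and 2 lower, where 3.45% of all genes were called lower. They were Fzd9, a Frizzled receptor (-1.68, adjusted p = 0.00517), and Ror2, a receptor of Wnt5a (-0.63, adjusted p = 0.0135). In NM-Brdi against NM-DMSO 1 was higher, the Frizzled receptor Fzd4 (1.29, adjusted p = 0.0466), and 1 lower, Fzd9 (-1.26, adjusted p = 0.0289), where 0.816% of all genes were called higher and 1.05% lower. Lrp6, a co-receptor bound by Dkk1 and Dkk2, had log2 fold changes of 0.54 (adjusted p = 0.151) and 0.49 (adjusted p = 0.203), and Lrp5 of -0.07 (adjusted p = 0.941) and 0.66 (adjusted p = 0.194). Kremen1, a partner of Dkk1 and Dkk2 at Lrp6, had 0.19 (adjusted p = 0.442) and 0.25 (adjusted p = 0.254). In control against NM-DMSO 10 of the 15 were higher and 0 lower, with Fzd1 (1.64), Kremen1 (1.25) and Ror1 (2.00) at the smallest p-values (adjusted p = 0.000519, 0.000648 and 0.000676), against 12% of all genes called higher.

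Of 21 Wnt ligand and Wnt release genes, 11 were tested, with a median log2 fold change of -0.02 in Brd, where 1 was higher and 2 lower, and -0.19 in NM-Brdi, where 0 were higher and 2 lower. Over all genes 3.13% were called higher and 3.45% lower in Brd, and 0.816% higher and 1.05% lower in NM-Brdi. Wnt10b, a ligand known to favour osteoblast formation, was lower in both pairs, at 44.0 ± 0.19 CPM in Brd against 96.3 ± 3.41 CPM in control (-1.13, adjusted p = 0.00559) and 36.2 ± 7.43 CPM in NM-Brdi against 96.2 ± 1.90 CPM in NM-DMSO (-1.41, adjusted p = 0.00763). Wnt6 (-0.87, adjusted p = 0.0318) was also lower and Wnt9a (1.105, adjusted p = 0.0127) higher in Brd, and Wnt10a was lower in NM-Brdi (-1.07, adjusted p = 0.0174). In control against NM-DMSO 6 of the 11 were higher and 0 lower, where 12% of all genes were called higher and 11.5% lower, with Wnt6 (0.89), Wnt4 (1.21) and Wnt11 at the smallest p-values (adjusted p = 0.0171, 0.0172 and 0.0253). Wnt11 had 31 counts in control and 2 in NM-DMSO, a ratio of 18.2 (95% counting interval 4.64 to 157). That interval covers counting error only. Wnt11 passed the filter on low counts through groups where it was higher than in NM-DMSO, so its call, counted above, is a description.

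Of 17 genes of intracellular Wnt signalling, all tested, 0 were higher and 1, Tcf7, a partner of β-catenin on DNA, was lower in each pair (-1.93, adjusted p = 0.0112 in Brd and -2.63, adjusted p = 0.00828 in NM-Brdi). Over all genes 3.13% were called higher and 3.45% lower in Brd, and 0.816% higher and 1.05% lower in NM-Brdi. In control against NM-DMSO 2 were higher and 4 lower, where 12% of all genes were called higher and 11.5% lower. Lef1 (-2.32), Ctnnb1 (0.70) and Dvl2 (-0.73) had the smallest p-values (adjusted p = 0.00342, 0.00467 and 0.00729). Among 13 feedback targets of β-catenin outside the set, Tcf7 and Lef1 also stand in the intracellular list and Apcdd1 among the relatives of the antagonists. Their calls count in each list that holds them. Of the 13, 10 were tested, with a median log2 fold change of -1.23 in Brd and -0.42 in NM-Brdi. Of these 0 were higher and 6 lower in Brd, where 3.45% of all genes were called lower, with Axin2 (-1.33), the ubiquitin ligase Rnf43 (-1.25) and the receptor Tnfrsf19 (-1.45) at the smallest p-values (adjusted p = 0.00412, 0.00412 and 0.00484). In NM-Brdi 0 were higher and 4 lower, where 1.05% of all genes were called lower, among them Myc (-1.29, adjusted p = 0.0124). Nkd2, an inhibitor of Dishevelled and another of these 4, had 2 counts in the NM-Brdi libraries together, against 68 in those of NM-DMSO, a ratio of 0.0244 (95% counting interval 0.0029 to 0.0917). It had 3 counts in the Brd libraries, against 18 in those of control, so that it was high mainly in NM-DMSO, and its call is a description. In control against NM-DMSO 2 were higher and 4 lower, against 12% and 11.5% of all genes, with Axin2 higher (1.71, adjusted p = 0.000565) and Lef1 and Tcf7 (-1.39, adjusted p = 0.0133) lower. In the interaction edgeR called 0 genes of these 5 lists. Between 0 and 3 genes of a list had an unadjusted p under 0.05, as did 1580 of all 17038 genes.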

How the data were processed

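RNA sequencing counts of 8 libraries were used, 4 groups of 2 taken from the sample titles. The authors deposited raw counts of reads for each gene symbol, in whole numbers and without normalisation. Per the submitters' processing notes, the tools were featureCounts 2.0.3, STAR 2.7.10a, Trimmomatic 0.39 and FastQC 0.11.9, with both GRCm38 and GRCh38 listed as builds. Neither the annotation release nor the strand setting is known from these sources.

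Counts were filtered with filterByExpr, scaled with TMM factors and fitted across all 17038 remaining genes with edgeR 4.0.16 (glmQLFit and glmQLFTest, R 4.3.3), with 1 term per group and no block. P-values were adjusted by Benjamini-Hochberg over all tested genes in each comparison, and SEs derive from the F statistic. The fit was also run on simulated data in which all groups shared the same spread for each gene. The NM-DMSO libraries here spread more widely, so that run is no check of these p-values. Alternatives were RLE size factors, DESeq2 1.42.0, no filter, voom quality weights in limma 3.58.1, a replicate block, each pair alone and each library left out. DESeq2 left Dkk2 without an adjusted p in 2 comparisons.

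Lengths and positions are from GENCODE M21 (GRCm38), which held 96.9% of the symbols. BLAST+ 2.17.0 alignments of at least 200 nt at 95% identity matched members to their antisense neighbours Gm26771 and Notumos and to no other gene. The members, lists and tests were chosen with earlier results of these data known. Named genes were the members, up to 3 called genes with the smallest p of each pathway list and comparison, and for the 2 members with the highest mean the 3 genes of at least 10 CPM most like each. Lrp5, Lrp6, Kremen1, Frzb and the values of Tmem88 and Igfbp4 in the NM pair fall outside this rule and were added after their values were seen.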

Additional observations from a re-analysis of the deposited data

Results flagged for a closer look

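Sfrp2 and Draxin had effects that differed between the pairs by the interaction test. The log2 fold change of Brd over control minus that of NM-Brdi over NM-DMSO was -1.758 for Sfrp2 (adjusted p = 0.00793) and -2.893 for Draxin (adjusted p = 0.0213), from edgeR's quasi-likelihood test. Both Brd libraries lay below both control libraries, and both NM-Brdi libraries lay above both NM-DMSO libraries, for each gene. The mean chi-square between libraries was 71.7 in NM-DMSO and 6.06 or less in the other groups. Without any 1 of the other 6 libraries neither gene was called. Both remained called without either NM-DMSO library, but that group then has no spread of its own. Calls kept in those fits therefore lend no support.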

How the results depend on the processing

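No member changed direction while called under any setting. Over all settings but the full fit, 257 member values with an adjusted p kept their side of the threshold, 52 lost their call and 19 gained one. With each library left out, edgeR called 36 to 5539 genes in Brd against control, 8 to 9577 in NM-Brdi against NM-DMSO, 0 to 7458 in the interaction and 556 to 11265 in control against NM-DMSO, where the fit of 8 libraries called 1121, 318, 7 and 3988. Members called in these fits numbered 0 to 5, 0 to 5, 0 to 4 and 1 to 5. In the fits with 0 interaction calls, 933 to 1135 genes and 3 to 4 members had an unadjusted p under 0.05. Where an arm keeps 1 library, it is assumed to vary like the other groups. Without a filter on low counts 1848, 2453, 608 and 6274 genes were called in the same order of comparisons, and voom weights gave 5876, 144, 154 and 2597. DESeq2 called 917 genes in the NM pair and 300 in the interaction. With the pair alone the counts were 6413 for Brd against control, 0 for NM-Brdi against NM-DMSO (1419 at an unadjusted p under 0.05) and 371 for control against NM-DMSO. In the NM pair 2 members were called with voom weights and 0 with the pair alone (5 at an unadjusted p under 0.05). The replicate block gave 970, 188, 5 and 3753 genes and 3, 4, 2 and 3 members, and the Dkk2 call in Brd was lost (adjusted p = 0.0751). The labels do not say whether replicate numbers pair the samples. Correlations of same-numbered deviations were 0.152 for NM-Brdi with NM-DMSO and -0.00286 to 0.038 for the other pairs of groups. With 2 libraries a group these values cannot decide it. The cause of these changes was not tested. Among the fits that leave out 1 library, the most genes in each comparison were called without an NM-DMSO library, the group whose libraries differ most from each other. Depth limits Sfrp1, Sfrp4, Dkk2 and Notum, whose counts were at most 35 in a library.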
